A study of Mus musculus with 5 samples.

Results

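The regions described here are the 197 bins of 10 kb that were called demethylated, that is less methylated than a reference pool of liver cells, in at least 2 of 4 single mouse hepatocytes. They were selected by the authors' own calls: a bin was taken when the demethylation lists of 2 or more cells held the same chromosome and start. The 197 bins are 19.9% of the 992 different demethylated bins, out of 1189 different bins called in either direction in the whole series. They account for 480 entries, 158 in cell 1, 158 in cell 2, 101 in cell 3 and 63 in cell 4. Because calls chose the bins, counts of cells and scores are given as a description, and no test sets the shared bins apart by them.

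The study set single liver cells against a pool to look at how their DNA methylation departs from it. All cells came from C57BL/6 mice whose livers were perfused with collagenase, and hepatocytes were picked by hand with capillaries. The DNA was cut with MseI, an enzyme that recognises TTAA, and 2 ng of carrier was added to each single cell, salmon DNA for cells 1 and 2 and tRNA cDNA for cells 3 and 4. The age, sex and number of animals, the cell make-up of the pool and the animal behind each cell are not given in the sources used here. Each cell is 1 library without a replicate, and all 4 were called against the same pool. The depth of each cell and the bins it covered are unknown. Calls carry no gene expression, so the hepatocyte label could not be checked by markers.

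Cytosine methylation at CpG dinucleotides is copied to the new DNA strand after replication by a maintenance methyltransferase. It is lost passively, when copying fails, or through oxidation by TET enzymes. Most CpGs of the mouse genome are methylated, while CpG-rich promoters are mostly free of methylation. A bin of this size can hold promoters, gene bodies and sequence between genes, so a call does not place the loss at any element within it. The deposited score runs from 0 to 1000, with low values in demethylation lists and high values in methylation lists. Its definition is not given, and it serves here only to describe a call.

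Gene starts inside bins of 3 or more cells show what kinds of promoter the shared bins hold. RefSeq promoter windows (GRCm38.p6) matched 33 genes in 32 of the 197 bins. Shown are the bases before 5 starts of protein-coding genes, as far as they lie in no annotated gene, chosen after they were seen for their spread from CpG-rich to CpG-poor. They read 5′ to 3′ on the gene's strand, with CpG and the MseI site TTAA in capitals.
Wdr53: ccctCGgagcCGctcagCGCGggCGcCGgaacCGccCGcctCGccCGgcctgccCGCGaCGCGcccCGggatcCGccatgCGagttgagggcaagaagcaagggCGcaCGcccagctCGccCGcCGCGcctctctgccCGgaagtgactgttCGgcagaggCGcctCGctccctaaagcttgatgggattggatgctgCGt
Rit1: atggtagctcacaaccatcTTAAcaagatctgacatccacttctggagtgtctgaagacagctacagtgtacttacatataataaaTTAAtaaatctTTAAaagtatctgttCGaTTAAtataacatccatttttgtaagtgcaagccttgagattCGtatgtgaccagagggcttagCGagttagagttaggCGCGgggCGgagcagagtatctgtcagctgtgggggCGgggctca
Birc2: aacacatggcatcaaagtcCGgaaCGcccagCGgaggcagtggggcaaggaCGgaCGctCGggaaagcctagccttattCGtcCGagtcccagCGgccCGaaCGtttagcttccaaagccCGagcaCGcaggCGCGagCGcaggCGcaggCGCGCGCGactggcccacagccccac
Tmem114: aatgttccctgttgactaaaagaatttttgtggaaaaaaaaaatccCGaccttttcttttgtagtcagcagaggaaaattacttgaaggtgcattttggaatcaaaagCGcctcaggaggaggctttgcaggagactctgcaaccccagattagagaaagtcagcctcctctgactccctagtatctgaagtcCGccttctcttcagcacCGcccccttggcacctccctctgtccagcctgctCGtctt
Tpm3: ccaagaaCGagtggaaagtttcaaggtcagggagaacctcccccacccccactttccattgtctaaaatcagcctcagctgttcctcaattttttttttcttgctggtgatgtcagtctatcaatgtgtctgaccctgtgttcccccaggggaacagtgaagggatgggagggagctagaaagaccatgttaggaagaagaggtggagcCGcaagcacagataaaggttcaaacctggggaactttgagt

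The Wdr53 stretch (chr16:32247026-32247226, plus strand) separates Wdr53, a WD-repeat gene, from Fbxo45, a ubiquitin ligase component gene. It holds 28 CpGs and 0 TTAA in 201 bases and lies in a bin called in all 4 cells. The Rit1 stretch (chr3:88716604-88716841, plus strand) belongs to another bin of all 4 cells and has 7 CpGs and 4 TTAA in 238 bases. Before Birc2, which encodes an inhibitor of apoptosis, the stretch (chr9:7837132-7837307, minus strand) has 21 CpGs in 176 bases. Those before Tmem114, a membrane protein gene (chr16:8425137-8425386, minus strand), and Tpm3, a tropomyosin gene (chr3:90072401-90072650, plus strand), have 5 and 2 CpGs in 250 bases. Shared bins held both CpG-rich and CpG-poor starts.

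Over 250 bases before all 39 matched starts, the median was 10 CpGs (quartiles 2 and 19). It was 9 (quartiles 4 and 18) for 178 starts in bins called in 1 cell only, and 6 (quartiles 2 and 16) for 30970 starts on the same chromosomes. TTAA, which reads alike on both strands, was present in 43.6% of starts in shared bins, 38.8% in bins of 1 cell and 48.9% of all starts. Starts with 10 or more CpGs made up 51.3%, 47.2% and 38.1% of these sets. The shares were not tested, and several windows belong to the same gene.

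Most shared bins were shared by exactly 2 cells. Of the 197, 126 were called in 2 cells, 56 in 3 and 15 in all 4, so that 71 bins (7.16% of the 992) were called in 3 or more and 15 (1.51%) in 4. The largest set, 64 bins, was called in cells 1 and 2 alone, and the smallest, 3 bins, in cells 3 and 4 alone. Cells 1, 2 and 3 without cell 4 called 30 bins. Cells of both carriers shared 130 bins, while 64 (32.5%) were called in salmon DNA cells alone and 3 (1.52%) in tRNA cDNA cells alone. The carrier goes with pairs of cells, so the part of carrier and of cell cannot be told apart. The demethylation lists differ in length (588, 426, 184 and 77 bins), so these sets do not compare how alike pairs of cells are. Without cell 1 the number of shared bins was 103, and without cell 2 it was 104.

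**Figure D1:**
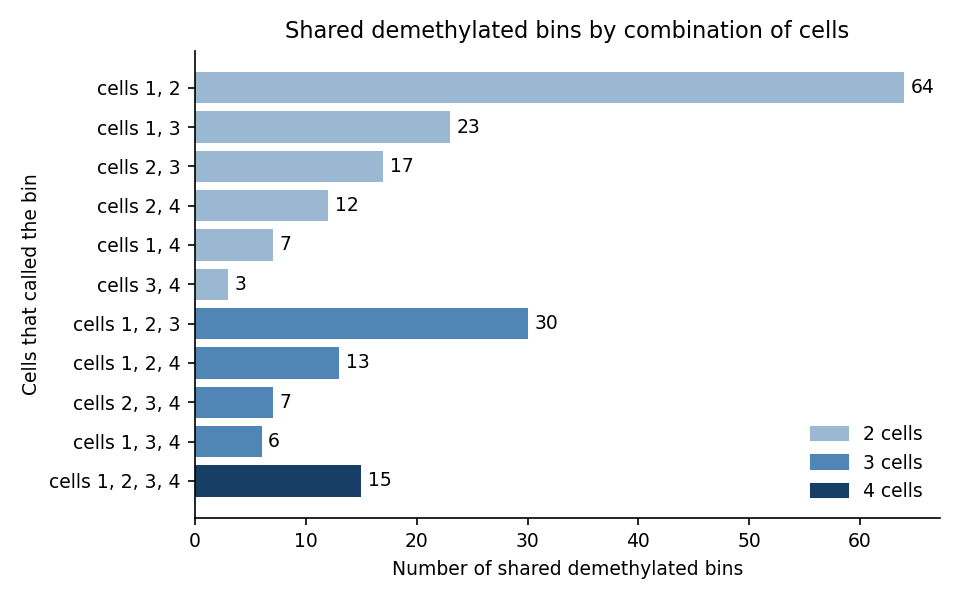
Number of shared demethylated bins (horizontal axis) for each combination of cells that called them (vertical axis), shaded by the number of cells. The bar of cells 1 and 2 reaches 64 bins, that of cells 3 and 4 reaches 3, and 15 bins were called in all cells.

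Scores of the same bin in different cells showed little or no correlation. Across the bins that a pair of cells had in common, Pearson's r lay between -0.05 and 0.17 in the 6 pairs. For cells 1 and 2, with 122 common bins, r was -0.01 and the median absolute difference was 134 score units. For cells 2 and 4, with 47 bins, r was 0.17 and Spearman's rank correlation 0.16, the highest of the pairs. These values are across bins, which share the libraries and the pool. The coverage behind each score is unknown, so counting error cannot be told apart from differences between cells. Calls end at an upper score (the highest demethylation score was 714), so only part of the scale could be compared. Only 2 bins had every score at 250 or less, and only 2 had every score at 600 or more.

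**Figure D2:**
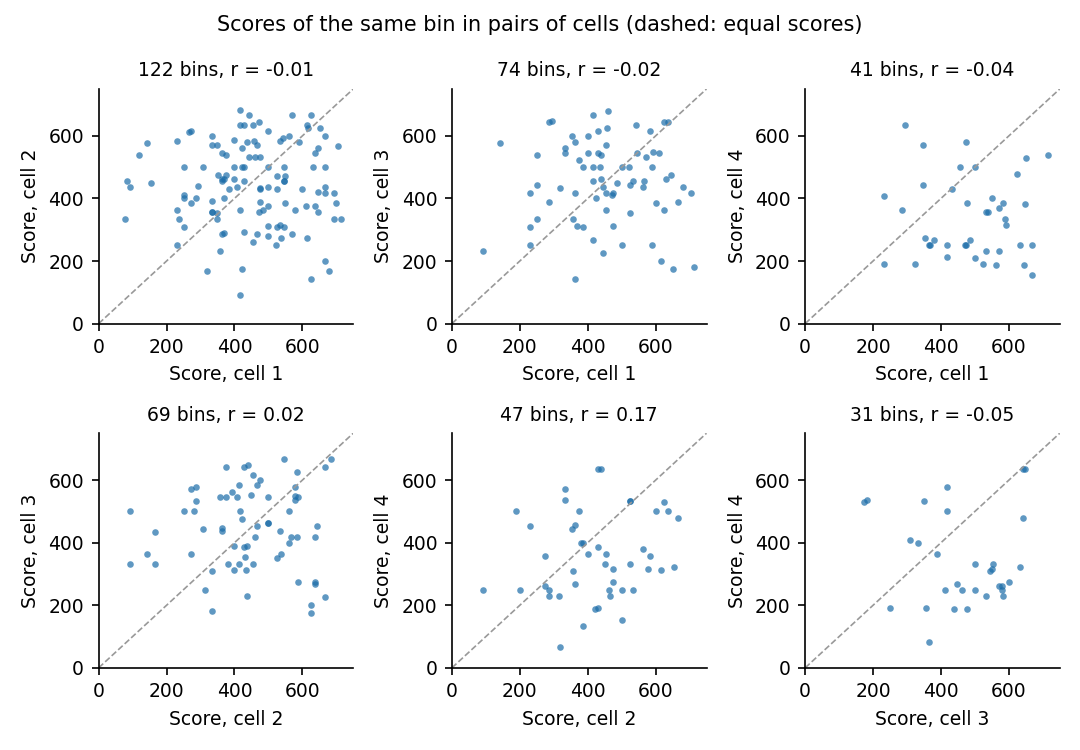
Score of the same bin in a pair of cells, 1 cell on each axis on the deposited scale, 1 point per bin common to the pair, with the line of equal scores dashed. Values of r lie between -0.05 and 0.17, and in the pair of cells 1 and 4 most points (33 of 41) lie below the line.

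Cell 4 had the lowest scores in shared bins. Its 63 entries ran from 67 through a median of 323 to 636. Cell 1 ran from 77 through 449.5 to 714, cell 2 from 91 through 445 to 683, and cell 3 from 143 through 455 to 680. The ranges overlap widely, but cell 4 had the lowest score in 66.7% of the shared bins it called, against 43.7%, 33.5% and 33.7% in cells 1 to 3. These shares also depend on how many cells called each bin, which differs between the cells. It was lower than cell 1 in 33 of 41 common bins and lower than cell 3 in 24 of 31. Against cell 2 it was lower in 31 of 47 and higher in 16. Scores of 250 or less made up 33.3% of its entries, against 11.4%, 8.23% and 8.91% in cells 1 to 3.

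Bins called in 1 cell only showed the same order, with medians of 438, 417, 455 and 333 in cells 1 to 4. Median scores of shared bins were 11.5 and 28 higher than these in cells 1 and 2, equal in cell 3 and lower in cell 4 (difference -10). The quartiles of the shared bins, 364 and 547 in cell 1 and 250 and 437 in cell 4, are far wider apart than these differences. The lowest score possible, 0, occurred in cells 1 and 2 outside the shared bins only. At the edge of the selection, bins in exactly 2 cells had a median of 443 for the mean score of a bin, against 430 in 3 cells and 433 in 4.

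**Figure D3:**
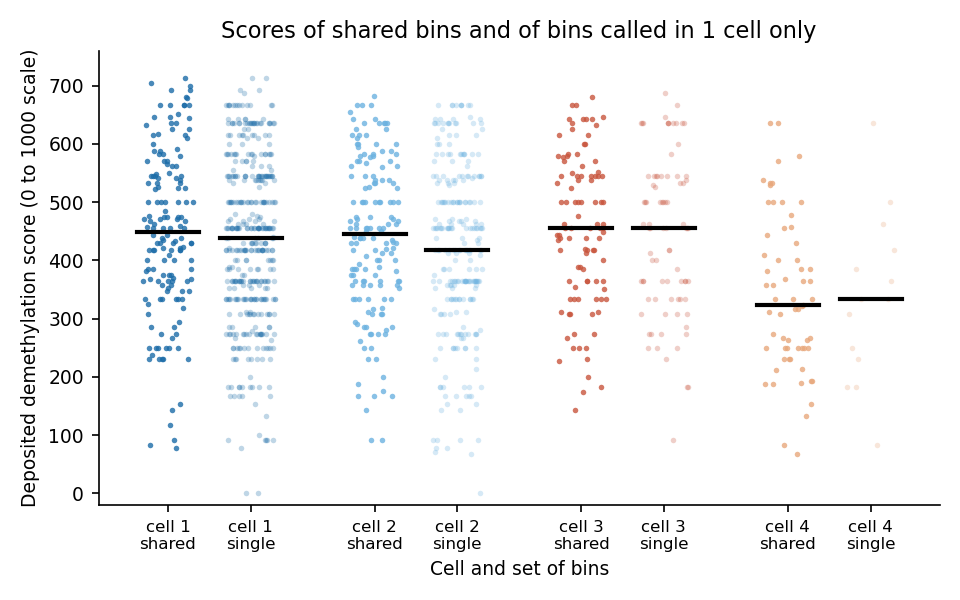
Deposited demethylation score (vertical axis) of every entry in each cell (horizontal axis), shared bins beside bins called in that cell only, 1 point per bin, with the median as a black bar. Medians of both sets are close within each cell, and both sets of cell 4 lie lowest (323 and 333).

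Within a bin the scores of the cells often lay far apart. The difference between the highest and lowest score of a bin had a median of 189 over the 197 bins. It was 100 or less in 58 bins (29.4%) and 300 or more in 40 (20.3%). It also depends on how many cells called the bin, with medians of 133 for 2 cells, 227.5 for 3 and 332 for 4. Counting error in the scores, whose coverage is unknown, is part of this range and could not be set apart.

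The narrowest range among bins of 3 or more cells was at an end of Acsf2, a gene of the acyl-CoA synthetase family (chromosome 11, 94598000 to 94608000), with 545, 500 and 545 in cells 1 to 3. Inside Smurf2, a ubiquitin ligase gene of the TGF-beta pathway (chromosome 11, 106884000 to 106894000), cells 1, 3 and 4 had 231, 250 and 190. At Ccdc92b and Cluh, which codes for a binder of mRNAs of mitochondrial proteins (chromosome 11, 74639000 to 74649000), cells 2 to 4 had 381, 333 and 400. Narrow ranges thus occurred at middle scores and, in Smurf2, at low ones. A bin on chromosome 7 (52258000 to 52268000) with no coding gene within 242284 bp had 368, 400 and 312 in cells 1 to 3. Inside Thsd7b, a thrombospondin-domain gene (chromosome 1, 130136000 to 130146000), cells 1, 2 and 4 had 476, 429 and 385.

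The widest range was that of a pseudogene bin on chromosome 13 (18030000 to 18040000, Vdac3-ps1 and Gm6575), with 714, 333, 182 and 538 in cells 1 to 4. At an end of Klc2, a kinesin light chain gene (chromosome 19, 5113000 to 5123000), cells 1 and 2 had 667 and 500 and cell 4 had 154. Inside Pmfbp1, a gene of sperm structure (chromosome 8, 109455000 to 109465000), cells 1 to 3 had 625, 143 and 364. The lowest cell differed between these bins, being cell 3, cell 4 and cell 2. Inside Slc9b1, a sodium/proton exchanger gene (chromosome 3, 135348000 to 135358000), cell 1 had 667 and cells 2 and 4 had 200 and 250.

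**Figure D4:**
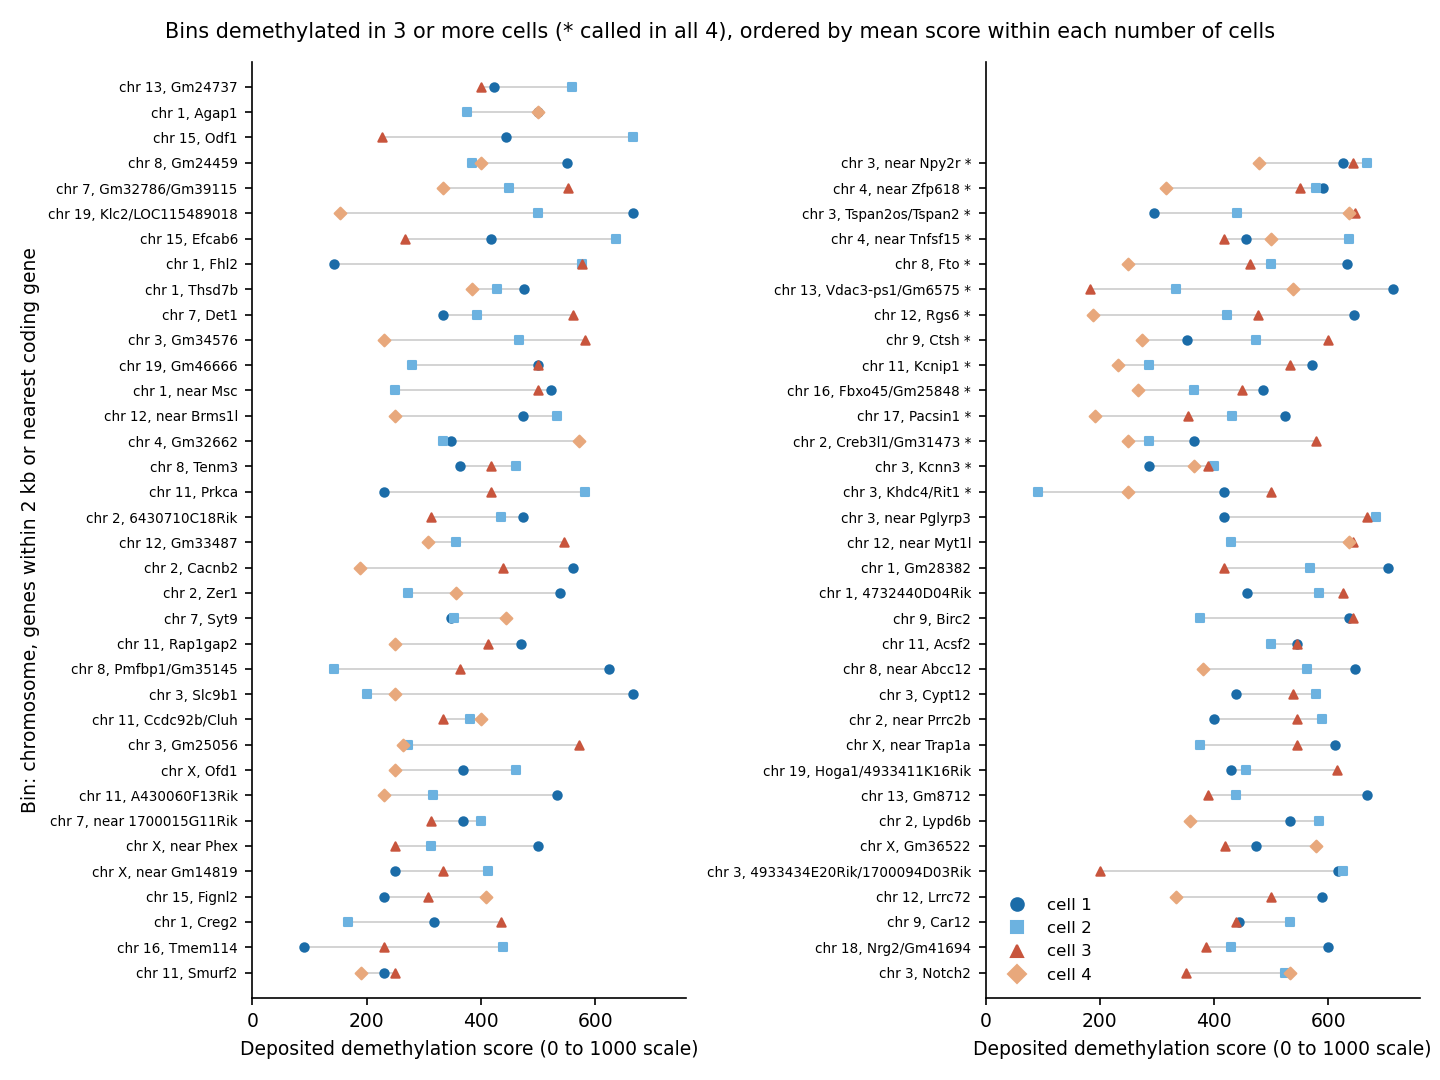
Scores (horizontal axis) of 69 of the 71 bins with calls from at least 3 cells, 1 row per bin named by chromosome and genes (vertical axis), 1 marker per cell joined by a line from lowest to highest, with bins of all 4 cells starred. The order of cells changes from row to row, and the diamonds of cell 4 are lowest in 9 of 14 starred rows.

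Of the 15 bins of all 4 cells, 9 overlap a protein-coding gene, and their genes belong to different functional groups. Kcnn3, a calcium-activated potassium channel gene (chromosome 3, 89630000 to 89640000), had the narrowest range of the 15, with 286, 400, 389 and 364 in cells 1 to 4. Kcnip1, whose product binds voltage-gated potassium channels (chromosome 11, 33738000 to 33748000), had 571 and 533 in cells 1 and 3 but 286 and 231 in cells 2 and 4. The Kcnip1 bin is among the 9 in which cell 4 was lowest. Others of these 9 are the bins at Rgs6, a G-protein regulator gene, Fto, an RNA demethylase gene, Ctsh, a lysosomal protease gene, and Creb3l1, a transcription factor gene. The bin of Fbxo45 and Wdr53 and that beside Pacsin1, an endocytosis gene, also belong to them.

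The remaining 2 of the 9 lay far from coding genes. On chromosome 4 from 62871000, which is 84555 bp from Zfp618, cells 1 to 3 had 591, 579 and 550 and cell 4 had 316. On chromosome 3 from 82675000, which is 126011 bp from Npy2r, cells 1 to 3 had 625, 667 and 643 and cell 4 had 478. In both, the first 3 cells lay close together and cell 4 apart. Elsewhere another cell was lowest, as at Khdc4 and Rit1, where cell 2 had 91, and on chromosome 4 from 63673000, where cell 3 had 417. In the bin of Tspan2, a tetraspanin gene, and Tspan2os, cells 1 and 2 (294 and 440) lay below cells 3 and 4 (647 and 636). Other bins had the opposite order of these pairs. At Fto the scores were 632 and 500 against 462 and 250, and beside Pacsin1 524 and 431 against 355 and 192. The bin from 62871000 also had it. Both orders of these pairs thus occurred among the bins of all 4 cells, and the part of the carrier was not tested.

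Of the 56 bins of 3 cells, 10 held an end of a protein-coding gene, 21 overlapped a protein-coding gene without an end of one, and 25 overlapped none. Beside Acsf2, Klc2 and Ccdc92b with Cluh, the first 10 include genes of several cell functions. At Birc2, which encodes the ubiquitin ligase cIAP1 (chromosome 9, 7832000 to 7842000), cells 1 to 3 had 636, 375 and 643. At Det1, a gene of a ubiquitin ligase complex (chromosome 7, 78845000 to 78855000), they had 333, 393 and 562. Both are regulators of protein turnover, and cell 3 was the highest in each. At Car12, a carbonic anhydrase gene (chromosome 9, 66762000 to 66772000), the scores were 444, 533 and 438.

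In 3 of the other 4 bins at gene ends, the scores of a bin spanned 300 or more. The bin of Tpm3 and 1700094D03Rik (chromosome 3, 90064000 to 90074000) had 617, 625 and 200 in cells 1 to 3, with cell 3 far below the others. At Odf1, a sperm tail gene (chromosome 15, 38224000 to 38234000), they had 444, 667 and 227. The bin of Hoga1, an enzyme gene of hydroxyproline breakdown, and 4933411K16Rik (chromosome 19, 42050000 to 42060000) had 429, 455 and 615. Tmem114 (chromosome 16, 8419000 to 8429000) had 91, 438 and 231, with the lowest score of cell 1 in any bin of 3 or more cells. No cell was lowest throughout: it was cell 3 at Tpm3 and Odf1 and cell 1 at Hoga1 and Tmem114.

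The Tpm3 bin also holds the microRNA gene Mir190b, and a bin of 2 cells holds Mir7048. MicroRNAs silence mRNAs that pair with their seed, bases 2 to 8, printed in capitals in the mature forms of Mir190b from RefSeq (its bin was called in 3 cells).
mmu-miR-190b-5p: uGAUAUGUuugauauuggguug
mmu-miR-190b-3p: aCUGAAUGucaagcauacucuca

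The seeds of the 2 arms differ. The hairpin lies at chr3:90070020-90070099 on the plus strand. The Mir7048 bin (chromosome 7, 25212000 to 25222000), which also holds ends of Zfp526 and Dedd2, had 407 and 545 in cells 2 and 3. Neither bin was called in cell 4.

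The 21 bins of 3 cells that overlap a coding gene without an end of one included a channel, a kinase and an adhesion gene from the lists used. Notch2 and Fhl2 were added after their values were seen. Cacnb2, a calcium channel subunit gene (chromosome 2, 14971000 to 14981000), had 562, 438 and 188 in cells 1, 3 and 4. Prkca, the protein kinase C alpha gene (chromosome 11, 108281000 to 108291000), had 231, 583 and 417 in cells 1 to 3. Tenm3, a teneurin adhesion gene (chromosome 8, 49316000 to 49326000), had 364, 462 and 417 in the same cells. Cell 1 was highest at Cacnb2 and lowest at Prkca and Tenm3. Notch2, a receptor gene needed for bile duct formation (chromosome 3, 98138000 to 98148000), had 524, 350 and 533 in cells 2 to 4. Fhl2, a LIM-domain cofactor gene (chromosome 1, 43144000 to 43154000), had 143 in cell 1 and 577 in cells 2 and 3.

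Some genes were overlapped by more than 1 shared bin. Snx25, a sorting nexin gene (chromosome 8, 46033261 to 46152441), was overlapped by 2 bins called in different pairs of cells. The bin from 46031000, over an end of the gene, had 526 and 471 in cells 1 and 2. That from 46090000 had 385 and 133 in cells 2 and 4. Igh, where the heavy chains of antibodies are encoded (113258768 to 116009954 on chromosome 12), held bins from 113411000, with 692 and 417 in cells 1 and 2, and from 113972000, with 417 and 500 in cells 2 and 3. Cell 2 called both bins of Snx25 and both of Igh.

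Shared bins overlapped each other in 2 places. At Fbxo45, Wdr53 and the small nucleolar RNA gene Gm25848 (chromosome 16), the bin from 32241000, with 485, 364, 448 and 267 in cells 1 to 4, overlapped the bin from 32242000, with 364 and 458 in cells 2 and 4. At the non-coding gene 6430710C18Rik (chromosome 2), the bin from 72811000, with 433 and 429 in cells 1 and 4, overlapped the bin from 72813000, with 474, 435 and 312 in cells 1 to 3. Joined, the latter 2 bins form a region called in all 4 cells. In all, the 197 bins form 195 separate regions that cover 1953 kb.

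The requirement of an identical start left out few neighbours. Another demethylation call with a different start overlapped 16 of the 197 shared bins (8.12%) and 47 of the 795 bins called in 1 cell only (5.91%). In 8 shared bins the overlapping call came from a cell that had not called the bin itself. At Zbtb42, a zinc finger gene (chromosome 12, 112679000 to 112689000), cells 2 and 3 had 500 and 462, and cell 1 had 579 in a bin shifted by 1 kb (offset -1000 bp). At Cdh22, a cadherin gene (chromosome 2, 165201000 to 165211000), cells 1 and 3 had 250 and 538, and cell 2 had 417 with the same shift.

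Calls of the opposite direction overlapped 2 shared bins, both in cell 2. On chromosome 2, cell 2 had a demethylation score of 188 in the bin from 180002000 and a methylation score of 857 in the bin from 180003000, which overlap by 9000 bp. Cell 4 had 500 in the first of them. At Khdc4 and Rit1 on chromosome 3, cell 2 had 91 in the bin from 88708000 and a methylation score of 786 in the bin from 88712000, with an overlap of 6000 bp. In both places a gain and a loss of methylation were thus called in the same cell in sequence that 2 bins share. Over all cells, 3 such overlaps of opposite calls within a cell occurred among 1275 demethylation entries.

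In position relative to genes, shared bins were not distinguishable from bins called in 1 cell only. Of 197 shared bins, 19 had their midpoint at a gene end (9.64%, interval 5.91 to 14.7%), against 88 of 795 others (11.1%; odds ratio 0.858, Fisher's exact adjusted p = 0.632). Gene bodies held 106 (53.8%) against 443 (55.7%; odds ratio 0.926, Fisher's exact adjusted p = 0.632). Sequence between genes held 72 (36.5%) against 264 (33.2%; odds ratio 1.16, Fisher's exact adjusted p = 0.632). A p above the threshold does not show that the positions are alike, and the tests treat neighbouring bins as independent.

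Other features of gene content were set side by side without a test. A protein-coding gene overlapped 60.9% of shared bins (interval 53.7 to 67.8%) and 65.0% of the others. An end of a protein-coding gene lay in 22.8% and 24.4%, a promoter window in 16.2% and 16.9%, and a lncRNA gene in 13.2% and 17.1%. The coding genes overlapped had a median length of 57.7 kb against 62.3 kb. Outside coding genes, the nearest lay at a median of 51.5 kb from shared bins and 39.3 kb from the others. Between genes, 29 of 72 bins were called in 3 or more cells, against 36 of 106 in gene bodies and 6 of 19 at gene ends.

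Of the chromosomes only X was tested. Of 16 different demethylated bins on X, 8 were shared, so that X held 4.06% of shared bins (interval 1.77 to 7.84%) and 1.01% of the others (0.435 to 1.97%; odds ratio 4.16, Fisher's exact adjusted p = 0.0251). This X share was known from earlier work on these lists when the test was chosen, so the p is no independent evidence for it. The call rests on few bins and on single libraries: without cell 2 the odds ratio was 3.08 (Fisher's exact adjusted p = 0.203) and without cell 4 it was 3.68 (0.0563). Without cell 1 it was 9.40 (0.00694). With calls of score 500 or less only, it was 3.10 (0.209). Of the 8 X bins called in 1 cell only, 7 were in cell 1 and 1 in cell 2.

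Of the 8 shared X bins, 5 were called in 3 cells, and the genes given here were chosen after their values were seen. The bin inside Ofd1, a centriole gene (166420000 to 166430000), had 368, 462 and 250 in cells 1, 2 and 4. That inside Bcorl1, a transcriptional corepressor gene (48367000 to 48377000), had 526 and 333 in cells 2 and 4, and that at an end of Bhlhb9 (135887000 to 135897000) had 333 and 357 in cells 1 and 2. The other 5 overlapped no coding gene. Of these, the bin from 156421000, with 500, 312 and 250 in cells 1 to 3, lay 731075 bp from Phex, the largest such distance of any shared bin.

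Autosomes also differed in how many of their demethylated bins were shared. The share was 30.3% of 76 bins on chromosome 8 (interval 20.2 to 41.9%), 29.4% of 51 on chromosome 3 (17.5 to 43.8%) and 27.0% of 63 on chromosome 11. It was 8.79% of 91 on chromosome 5 (3.87 to 16.6%), 10.5% of 57 on chromosome 9 and 3.33% of 30 on chromosome 14 (0.0844 to 17.2%), and on chromosome 18 it was 2 of 25 bins (0.984 to 26.0%). Chromosome 5 had the most demethylated bins but none called in 3 or more cells, which also held for chromosomes 6 and 14. Of the 15 bins of all 4 cells, 4 were on chromosome 3. These differences were not tested, and the coverage of each chromosome is unknown.

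**Figure D5:**
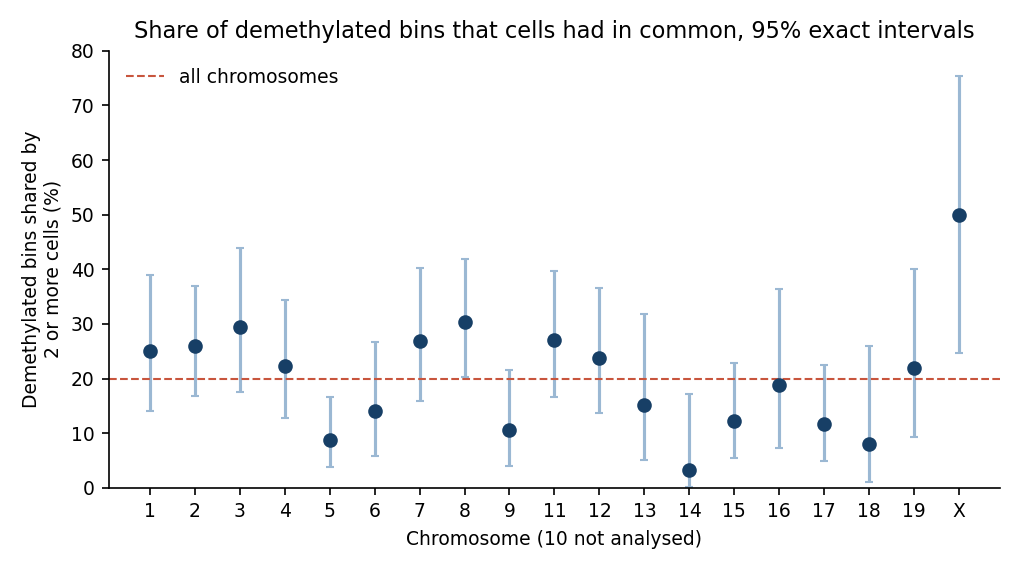
Share of the different demethylated bins of each chromosome that were called in 2 or more cells (vertical axis, percent) by chromosome (horizontal axis), with exact 95% intervals as bars and the 19.9% of all chromosomes dashed. Chromosome X is highest with 8 of its 16 bins, and chromosomes 14, 18 and 5 are lowest with 1 of 30, 2 of 25 and 8 of 91 bins.

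The spacing of shared bins along chromosomes is given without a comparison set. With starts at most 100 kb apart, 12 bins (6.09%) had another shared bin beside them, in 6 pairs. With starts at most 1 Mb apart, 68 bins (34.5%) fell into 29 groups. A group of 3 bins with 11 calls on chromosome 3 (88708000 to 90074000) holds the bins of Khdc4 with Rit1, Kcnn3 and Tpm3.

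No gene of the liver lists lay at a shared bin. Apoc2, an apolipoprotein gene outside the lists that was noticed later, lies within 2000 bp of a bin on chromosome 7 (19661000 to 19671000). The enzyme gene Hoga1, also outside the lists, overlaps a shared bin, so the absence holds for the listed genes only. No shared bin lay within 2000 bp of 51 hepatocyte secreted and metabolic genes, 22 liver transcription factors, 33 markers of other liver cells, 15 genes of the methylation machinery or 68 imprinted genes on the chromosomes used. For each list, 0 of 197 bins allows a share of up to 1.52%, if a count of 0 is taken to allow up to 3 counts. Bins called in 1 cell only numbered 3, 0, 5, 0 and 5 of 795 for these lists. Counts were low in both sets and were not tested.

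Gene families were collected by the pattern of their symbols, so related genes with other symbols are not counted. Over all 22 lists and families, 22 shared bins (11.2%) and 115 others (14.5%) lay at a listed gene. Potassium channels and their partners had 2 shared bins, Kcnn3 and Kcnip1, both called in all 4 cells, and 4 others (1.02% against 0.503%). Cadherins and teneurins had 2, at Cdh22 and Tenm3, and 5 others. Contactin, neurexin and related adhesion genes had 3 (1.52%) and 7 others (0.881%): Cntn3 with 579 and 263 in cells 3 and 4, Cntnap4 with 273 and 385 in cells 1 and 2, and Nlgn2, a neuroligin gene, with 545 and 455 in cells 1 and 2. Cntn3 is among the 3 bins called in the tRNA cDNA cells alone.

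Genes with the symbols of zinc finger families had 4, at Zscan20, Zfp248, Zfp526 and Zbtb42, and 13 others (2.03% against 1.64%). Solute carriers had 2 and 17 others (1.02% against 2.14%), at Slc9b1 and at Slc35f3, where cells 3 and 4 had 633 and 323. Among regulators of G-proteins and GTPases counted by symbol were Rgs6 and Arhgap35, a GTPase-activating protein gene with 562 and 500 in cells 2 and 3. Pde11a, a phosphodiesterase gene, had 250 and 500 in cells 1 and 2. Glutamate and GABA receptors, cytochrome P450 genes, ATP-binding cassette transporters, homeobox and related factors counted by symbol, collagens and laminins, and olfactory receptors had 0 shared bins, with the same limit of 1.52%. In the same order, 5, 0, 1, 4, 5 and 4 of the 795 bins called in 1 cell only lay at these families. Counts were thus low in both sets. Genes seen afterwards outside these symbol patterns were Meis2, a homeobox gene, Zfhx3, a zinc finger homeobox gene, Sall4 and Zmat4, zinc finger genes, and Rap1gap2, Sipa1 and Agap1, genes of GTPase-activating proteins. A count of 0 for a pattern is thus no count for the whole family, and these counts were not tested.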

How the data were processed

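DNA methylation was read by reduced representation bisulfite sequencing in 4 single hepatocytes and a pool. Per the submitters' processing notes, the build was mm10 and the tools include Bismark 0.7.6, Bowtie2 2.0.0, cutadapt 1.0, Trim Galore 0.2.2 and CASAVA 1.4. The authors deposited, for each cell, bins called less or more methylated than the pool, each with a score. No definition of the score, call rule, depth or list of covered bins was available. It is thus unknown how much coverage lies behind a score.

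Entries spanning 10000 bp in the demethylation lists were joined across cells by chromosome and start. Genes came from RefSeq's table of GRCm38.p6, the same build. Bins were placed by midpoint: at a gene end (within 1000 bp), in a gene body, or between genes. The 4 shares were tested with Fisher's exact test (two-sided), and p-values were adjusted by Benjamini and Hochberg's method over these 4 (Python 3.11.15, SciPy 1.17.1), checked on simulated data. Intervals are exact Clopper-Pearson 95% intervals and cover counting error only. The limit given for a count of 0 is no such interval and takes 3 counts as the most allowed. Alternatives were half-bin overlap, a score limit of 500, other gene definitions, merged bins, 3 or more cells, and each cell left out or taken alone.

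The bins and gene lists were chosen with earlier results of these data known. Named were all bins in 4 cells, bins in 3 cells at coding gene ends, genes with several shared bins, list genes, the 5 widest and 5 narrowest score ranges, the 3 largest overlapping groups and bins overlapping a methylation call. Only 2 groups overlapped. Base composition was to be read per bin; without the genome, promoters were used. Chromosome 10 was not analysed here, and 1 locus that the rule names is not reported here.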

Additional observations from a re-analysis of the deposited data

Results flagged for a closer look

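In 4 of 22 sets of 4 cell values examined, 1 cell lay apart from the others by more than the limit used for so few values, which chance does in about 1 in 20 independent sets. These sets share cells and bins, so the number is no test. All 4 were cell 4, and 3 of them describe the same low scores. Its median score in shared bins was 323, its share of entries at 250 or less was 33.3%, and it had the highest score in 17.5% of the shared bins it called. The last share also depends on how many cells called each bin. In the bin on chromosome 4 from 62871000, its score of 316 stood apart from 591, 579 and 550.

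Outside the 10 kb bins, a short entry of 100 bp on chromosome 7 from 143898716 was called demethylated in all 4 cells, with scores of 308, 385, 417 and 455 in cells 1 to 4. A short position can carry several calls of 1 cell: on chromosome 5 from 150224172, cell 1 had demethylation scores of 182, 250 and 615. What such a position stands for is not given, so it may not be a single locus common to the cells. Short entries were left out of the 197 bins by their width.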

How the results depend on the processing

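The number of shared bins was 201 with half-bin overlap and 201 with short entries. It fell to 117 with scores of 500 or less, and was 103 to 175 with a cell left out. With another cell left out, the median score of shared bins was 455 to 458 in cell 1, 438 to 440 in cell 2, 441 to 458.5 in cell 3 and 316 to 333 in cell 4, listed genes lay at 9.74 to 14.6% of shared bins, and 45.2 to 53.8% of starts had 10 or more CpGs. The odds ratio of chromosome X was above 1 in all 9 settings that gave one, but missed the threshold at scores of 500 or less (3.10), in bins of cell 1 alone (2.80) and in 2 of the 4 omissions of a cell (range 3.08 to 9.40). Bins of cells 3 and 4 alone gave no odds ratio (4 of 101 against 0 of 83, and 3 of 63 against 0 of 14). No test of gene position passed in any setting. Odds ratios of gene bodies changed sides with gene ends of 2000 bp (1.05), any overlap (1.06) and scores of 500 or less (1.22). Those of gene ends did so with protein-coding genes only (1.58) and in bins of cell 3 alone (1.53). The cause of these changes was not tested. The split by single cells was added later, with the data known. No paired analysis was possible because the cells form a single group.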

Other observations

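Scores took few values: the 480 entries of shared bins had 123 different scores, of which 500 was the most frequent with 29 entries, followed by 333 with 21. The 22 short entries lay at 8 positions, 4 of which were demethylated in 2 or more cells. At the short position on chromosome 9 from 123273338, cells 1, 2 and 3 had demethylation scores of 419, 447 and 583, while methylation scores of 818 and 833 were given in cells 2 and 4.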
